A study of Homo sapiens with 12 samples.

Results

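Small ribosomal subunit protein genes, the cytosolic family RPSA and RPS2 to RPS29, were taken as a list of 30 Ensembl gene IDs, and all 30 were present among the 18569 IDs measured. The list was chosen by family and used no measured value. The cells were LNCaP-AI, a prostate cancer line derived from LNCaP and kept without androgen as a model of castration-resistant disease, and all groups shared this androgen deprivation. One group carried shMETTL1, a short hairpin RNA against the methyltransferase METTL1, and the other carried the control hairpin shscramble. Each group had 3 replicates, and each replicate had an AlkAniline-Seq library and an input library, which gave 12 libraries in 4 groups. The paper's methods give 3 biological replicates for its data in general. Nothing in the labels says whether the replicates here came from separate cultures. A p-value here thus measures the spread between these libraries, which may be technical. The deposited tables carry Ensembl IDs without symbols and the tables used here pair none, so each gene is named by its ID, and neither METTL1 itself nor prostate markers could be checked.

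The proteins of this family assemble on the small ribosomal RNA into the subunit that binds mRNA, scans for the start codon and decodes it. RPS3 lies near the mRNA entry channel and RPSA near the exit, RPS6 is the classic substrate of S6 kinase, RPS14 and RPS19 are needed for subunit maturation and are lost or mutated, respectively, in acquired and inherited anaemias, and RPS27A is made as a fusion with ubiquitin. Their mRNAs are among the most abundant in dividing cells, and many begin with a 5' terminal oligopyrimidine tract, a run of C and T after an initial C, through which mTOR and LARP1 control their translation. METTL1 works with WDR4 and places N7-methylguanosine (m7G) in tRNA and has been reported to place it inside mRNA. AlkAniline-Seq turns m7G into a break in the RNA chain by alkali and aniline, so reads pile up at a single position, and the input library of the same replicate serves as the comparison.

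The transcript starts of the family illustrate the shared tract. RefSeq gave a start window for 24 of 31 family symbols (Y-linked genes left out), and 18 of the 27 windows (66.7%) had C at the first transcribed base followed by at least 4 further C or T, against 4.54% of 22199 protein-coding windows. The tract was 6 to 14 bases long in these windows. Below, 10 bases before the start stand in lower case, the tract is in capitals, and the remaining transcribed bases are again in lower case; the letters are from GRCh38.p14 and are shown to contrast starts with and without the tract.
RPSA (chr3:39406710-39406739, plus strand): tgccgcctgtCTTTTCCgtgctacctgcag
RPS6 (chr9:19380217-19380246, minus strand): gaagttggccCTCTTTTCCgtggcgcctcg
RPS14 (chr5:150449720-150449749, minus strand): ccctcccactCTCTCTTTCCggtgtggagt
RPS19 (chr19:41860245-41860274, plus strand): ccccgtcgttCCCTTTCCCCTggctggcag
RPS24 (chr10:78033853-78033882, plus strand): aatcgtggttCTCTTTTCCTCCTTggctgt
RPS28 (chr19:8321486-8321515, plus strand): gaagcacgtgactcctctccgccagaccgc
RPS29 (chr14:49598691-49598720, minus strand): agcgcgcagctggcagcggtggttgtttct
RPS28 and RPS29 had no such tract at the start given by RefSeq. In RPS28 the first transcribed base given was A, and a run of C and T followed it directly. These windows were not linked to the measured IDs, because no table paired the names.

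Library totals ran from 1421551 to 2764417 reads in AlkAniline-Seq and from 2783709 to 3258499 in the input. One library stood apart: shscramble input 2 had reads at 72098 positions, against 153839 to 311979 in the other inputs, and its TMM scaling factor was 0.665 in the fit of input libraries, against 1.01 to 1.19 in the others. Results that use the input are therefore also given without that replicate or with library size as the only scaling.

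The 30 genes held a large part of all reads, and a larger part of the input than of AlkAniline-Seq. Together they took 4.48%, 4.50% and 4.13% of the reads in the shscramble AlkAniline-Seq libraries and 3.59%, 3.89% and 3.70% in the shMETTL1 libraries. In the input they took 8.42%, 6.68% and 7.13% with shscramble and 6.26%, 5.96% and 5.39% with shMETTL1. The shMETTL1 libraries were thus below all shscramble libraries in both kinds of library. Group means were 4.37% ± 0.205 against 3.73% ± 0.148 in AlkAniline-Seq and 7.41% ± 0.905 against 5.87% ± 0.443 in the input (SD, n = 3). Each such share is a sum over the members and has no test.

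One gene and a few positions carried much of this. ENSG00000008988 had the second most AlkAniline-Seq reads and the most input reads of all IDs. Without it the members' share was 3.55%, 3.54% and 3.28% with shscramble and 3.01%, 3.29% and 2.91% with shMETTL1 in AlkAniline-Seq, so that the groups overlapped. In the input it was 4.403%, 4.05% and 4.49% against 3.62%, 3.84% and 3.23%, and the groups did not overlap. Each member's position most read in AlkAniline-Seq was then left out of both kinds of library, with other IDs kept whole. The shares came to 2.38% ± 0.153 and 2.16% ± 0.242 in AlkAniline-Seq and to 2.28% ± 0.211 and 2.01% ± 0.177 in the input (SD, n = 3). The groups overlapped in both.

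**Figure D1:**
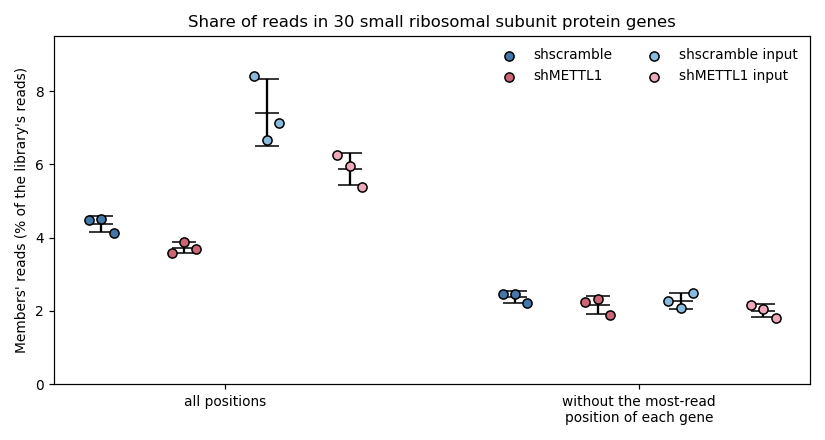
Reads in the 30 genes as a percent of each library's reads, with all positions (left) and without each gene's most-read position (right). The position left out is the one most read in AlkAniline-Seq. Points are libraries, and bars give the group mean with its SD (n = 3); the input means of 7.41% and 5.87% stand above the AlkAniline-Seq means of 4.37% and 3.73% with all positions only.

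A position is a row of the deposited table, numbered here by its order within the gene ID, and is not a genome coordinate. The members had 74 to 241 such positions each and 4221 in all. Of these, 2949 were read in at least 1 AlkAniline-Seq library, and 477 of them (16.2%) were read in all 6, against 1.897% of the 404685 positions read in the whole series. The input gave 615 member positions read in all 6 libraries (16.5%, against 1.99% of all IDs), and 373 were read in all 12. The members differ from other IDs in read depth, and no comparison at matched depth was made. The 477 positions carried 79.8% of the members' AlkAniline-Seq reads.

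In 3 members, over 50% of the gene's reads sat at 1 position in all 6 AlkAniline-Seq libraries. In the input the same held for these 3 and for ENSG00000105372, with 57.6% to 70.1% at position 17. In 21 members the position most read in AlkAniline-Seq stayed under 50% in all 12 libraries. Such members were not counted over all IDs. ENSG00000008988 had 15761, 24377 and 11920 reads at position 76 in the shscramble AlkAniline-Seq libraries and 13428, 15599 and 19604 in the shMETTL1 libraries. In the input the same position had 130788, 82697 and 82486 reads with shscramble and 87289, 70060 and 60976 with shMETTL1. It held 88.6% to 96.6% of the gene's AlkAniline-Seq reads and 97.6% to 98.8% of its input reads, and it was the most-read position of the series in AlkAniline-Seq.

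The other 2 members of this kind showed the same site in both kinds of library. Position 70 of ENSG00000213741 had 4634, 7897 and 3714 AlkAniline-Seq reads with shscramble and 4980, 6905 and 6964 with shMETTL1, which was 83.0% to 93.9% of the gene, and 86.2% to 93.6% in the input. Position 105 of ENSG00000134419 had 4582, 5505 and 3493 AlkAniline-Seq reads with shscramble and 4757, 4950 and 4899 with shMETTL1, which was 59.5% to 85.1% of the gene, and 81.4% to 87.9% in the input. The groups overlapped at both positions. The most-read AlkAniline-Seq position was also the most-read input position in 19 of the 30 genes, which was not counted over all IDs. In 7 genes every input library gave that position a larger part of the gene than every AlkAniline-Seq library did, and in 1 gene, ENSG00000140988, the reverse held, with at least 7.40% in AlkAniline-Seq and at most 5.72% in the input. These genes were singled out after their values were seen, and such genes were not counted over all IDs. Choosing the position by its AlkAniline-Seq reads favours a larger part there in AlkAniline-Seq. As a share of coverage, the position of ENSG00000140988 overlapped, with 19.5% to 44.6% in AlkAniline-Seq and 9.09% to 49.3% in the input.

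The other 2 of the 5 most-read member positions had fewer reads. Position 109 of ENSG00000138326 had 1159, 2420 and 1466 AlkAniline-Seq reads with shscramble and 978, 1906 and 2764 with shMETTL1. Position 46 of ENSG00000149273 had 778, 1573 and 832 with shscramble and 801, 2062 and 1714 with shMETTL1. The groups overlapped at both, and none of the 5 passed the test (edgeR's quasi-likelihood test, adjusted p of 0.9998 each; log2 fold changes from -0.19 to 0.45).

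**Figure D2:**
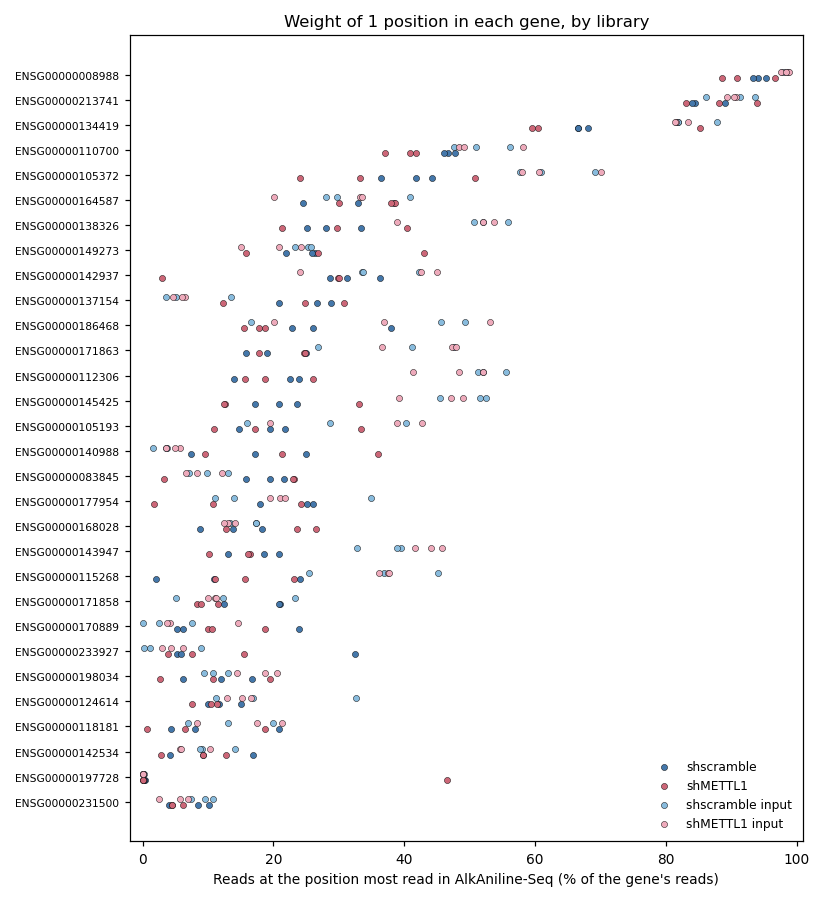
Share of a gene's reads at the position that was most read in AlkAniline-Seq, in percent, for each of the 30 genes and each of the 12 libraries (points, coloured by group). Position 76 of ENSG00000008988 lies at 88.6% or more in every library, whereas 21 genes stay under 50% in all 12.

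No member passed the test for a change in AlkAniline-Seq reads with METTL1 knockdown. Counts summed per gene ID were compared by edgeR's quasi-likelihood test with Benjamini-Hochberg adjustment over 11097 IDs, and 0 of the 30 members passed an adjusted p of 0.05, where 0.00901% of all IDs passed as lower and 0% as higher. At an unadjusted p under 0.05, 1 member was lower (background 3.14%) and 0 were higher (background 3.84%). DESeq2 also gave 0 members past its threshold. The members' log2 fold changes (shMETTL1 over shscramble) ran from -0.44 to 0.45 with a median of -0.02, beside a median of 0.07 over all IDs tested. Above 0 were 14 members and below it 16, where 52.9% of all IDs were above.

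The member with the smallest p was ENSG00000008988. It stood at 9211, 9800 and 8882 CPM (counts scaled to library size and TMM factor) with shscramble and at 5913, 6967 and 8664 with shMETTL1. All shMETTL1 libraries lay below all shscramble libraries, which held for no other member and for 7.38% of all IDs. No member had all shMETTL1 libraries above all shscramble libraries, as 7.10% of all IDs did. With library size as the only scaling, 3 members were lower throughout, beside 8.43% of all IDs. Its log2 fold change was -0.37 ± 0.18 (SE), with an adjusted p of 0.715. In the fit that dropped the most-read position of every ID and rescaled the libraries, its log2 fold change was 0.15. The members' median moved from -0.02 to 0.22 in that fit. How much of the move of this gene came from its own position was not tested.

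The other members at the ends of the order also failed the test. ENSG00000177954, the lowest, had 239, 280 and 164 CPM with shscramble and 121, 181 and 202 with shMETTL1 (log2 fold change -0.44 ± 0.43, adjusted p 0.927 by edgeR). ENSG00000083845 had 1283, 1599 and 1753 against 1129, 1699 and 960 CPM (-0.29 ± 0.26, adjusted p 0.910). Their groups overlapped. At the other end, ENSG00000233927 had 264, 301 and 315 CPM with shscramble and 212, 588 and 405 with shMETTL1 (0.45 ± 0.38, adjusted p 0.901). ENSG00000115268 had 175, 193 and 134 against 245, 162 and 208 CPM (0.29 ± 0.43, adjusted p 0.966). ENSG00000168028 had 685, 738 and 625 against 895, 925 and 665 CPM (0.28 ± 0.27, adjusted p 0.927). In all 3 the groups overlapped, as 1 shMETTL1 library lay within or below the shscramble range.

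Read depth differed greatly within the family. The members with the most AlkAniline-Seq reads were ENSG00000008988, ENSG00000134419 and ENSG00000213741, with 107998, 42221 and 40316 over the 6 libraries. The fewest were in ENSG00000197728 (1887 reads), ENSG00000115268 (2536) and ENSG00000177954 (2643). ENSG00000134419 stood at 3786, 3102 and 3637 CPM with shscramble and 3068, 3379 and 2458 with shMETTL1. ENSG00000213741 stood at 3018, 3527 and 2960 against 2341, 3180 and 3169 CPM. ENSG00000197728, the least read, stood at 125, 169 and 118 against 62.4, 224 and 141 CPM. These values are not per length, so they order reads and not transcript levels.

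In the input, the family's fold changes lay on the lower side. No member passed an adjusted p of 0.05 in edgeR, where 0% of 11740 IDs passed in either direction, and DESeq2 also called none. At an unadjusted p under 0.05, 10 members were lower, or 33.3%, beside 4.62% of all IDs, and 0 were higher (background 1.64%). All 30 log2 fold changes were below 0, from -0.03 in ENSG00000177954 down to that of ENSG00000168028, with a median of -0.48 beside -0.04 over all IDs, of which 51.5% were below 0. The members share libraries, so their values are not independent of each other. Their median log2 CPM relative to all IDs had a pooled SD of 0.875 between input libraries of a group. In bulk RNA, less RNA per cell of these genes cannot be told apart from more RNA of others.

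The size of this shift depended on shscramble input 2 and on scaling. All shMETTL1 inputs lay below all shscramble inputs in 15 of 30 members on the TMM scale, where 5.84% of all IDs did so, and above in 0 members, beside 7.64%. With library size as the only scaling, this held for 3 members and 3.20% of IDs. That scaling moved the median of all IDs from -0.04 to 0.22 and the members' median from -0.48 to -0.14. It left 6 members above 0, beside 60.7% of all IDs, and 4 lower at an unadjusted p under 0.05, beside 1.54%. Relative to the median of all IDs, the members stood at -0.45 with TMM, -0.36 with library size and -0.35 without replicate 2 of shscramble, and 29 of 30 lay below that median with either scaling. Without that replicate, 5 members were lower at an unadjusted p under 0.05, beside 3.43% of all IDs. On the TMM scale without shscramble input 2, all shMETTL1 inputs lay below in 17 members, beside 12.6% of IDs. They lay above in 0, beside 11.7%. With library size alone and without that input, 7 members lay below, beside 9.46%, and 1 above, beside 14.7%.

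The lowest input fold changes were in 3 genes. ENSG00000168028 had 574, 1411 and 685 CPM with shscramble and 486, 466 and 380 with shMETTL1 (log2 fold change -1.003 ± 0.36, edgeR adjusted p 0.765). ENSG00000213741 had 3111, 6226 and 2414 against 2230, 1952 and 1764 CPM (-0.98 ± 0.31, adjusted p 0.747). ENSG00000231500 had 842, 1578 and 788 against 728, 677 and 460 CPM (-0.78 ± 0.34, adjusted p 0.766). The groups did not overlap, and shscramble input 2 was the highest library in each. Without replicate 2 of shscramble, these values became -0.51, -0.48 and -0.39.

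The 2 genes with the most input reads moved less with that library. ENSG00000008988 had 41985, 41383 and 26262 CPM with shscramble and 23220, 20778 and 20509 with shMETTL1 (-0.77 ± 0.20, edgeR adjusted p 0.747). ENSG00000134419 had 11194, 13628 and 9554 against 6279, 8159 and 5610 CPM (-0.78 ± 0.23, adjusted p 0.747). Neither pair of groups overlapped, and without replicate 2 of shscramble the values were -0.67 and -0.64. ENSG00000145425 had 1610, 2385 and 1809 against 897, 1492 and 1222 CPM (-0.68 ± 0.29, adjusted p 0.765), again without overlap. ENSG00000110700 had 1490, 1982 and 1383 against 1067, 1191 and 946 CPM (-0.60 ± 0.28, adjusted p 0.766), and its groups did not overlap either.

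In the other 3 members with an unadjusted p under 0.05 the groups overlapped. ENSG00000164587 had 1737, 3379 and 2391 CPM with shscramble and 1217, 1745 and 1496 with shMETTL1 (-0.75 ± 0.29, edgeR adjusted p 0.765). ENSG00000118181 had 690, 1252 and 530 against 567, 471 and 418 CPM (-0.76 ± 0.36, adjusted p 0.766). ENSG00000105372 had 3234, 3730 and 2159 against 2404, 1865 and 1758 CPM (-0.60 ± 0.27, adjusted p 0.766). Each overlap came from 1 shMETTL1 library lying above the lowest shscramble library. Without replicate 2 of shscramble, these values became -0.48, -0.33 and -0.43. The fold changes nearest 0 were -0.03 in ENSG00000177954, -0.16 in ENSG00000115268 and -0.18 in ENSG00000105193, whose inputs stood at 202, 155 and 216 against 172, 199 and 193, at 258, 266 and 277 against 237, 270 and 209, and at 701, 872 and 735 against 544, 787 and 701 CPM.

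**Figure D3:**
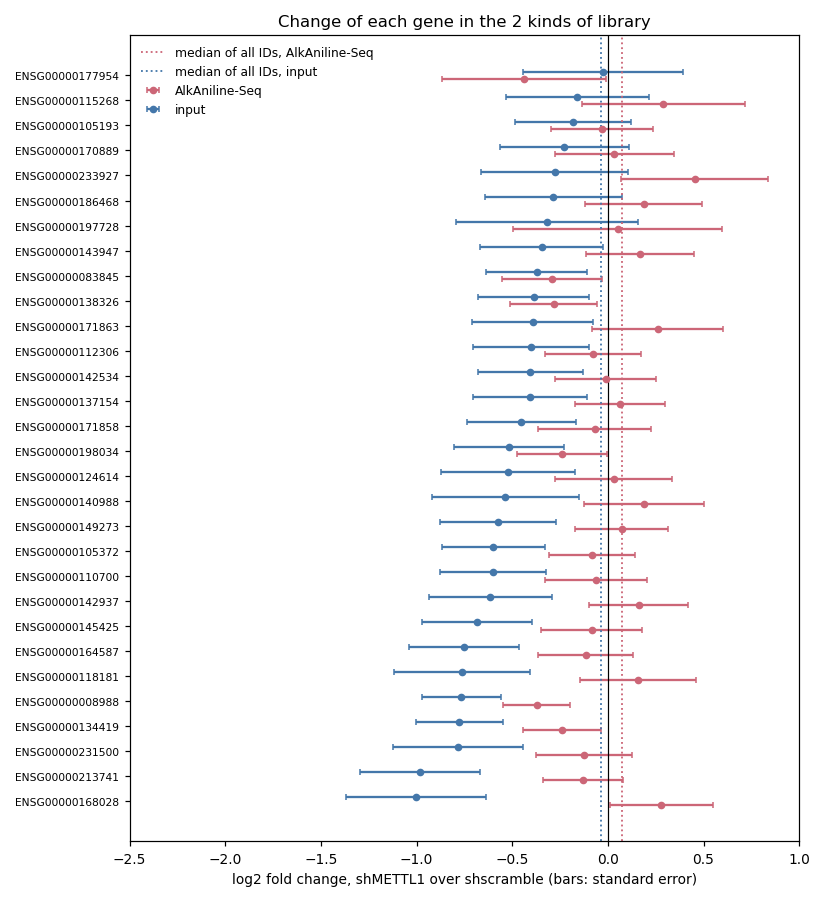
Log2 fold change of shMETTL1 over shscramble for each gene in AlkAniline-Seq and in the input, on the TMM scale, with standard errors; dotted lines mark the median of all IDs tested (0.07 and -0.04). The input values all lie below 0, whereas the AlkAniline-Seq values lie on both sides of 0.

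The change in AlkAniline-Seq relative to the input asked whether knockdown altered AlkAniline-Seq reads beyond the input. All 12 libraries and 12877 IDs entered 1 edgeR model with an interaction term. No member passed an adjusted p of 0.05 (background 0% higher, 0.00777% lower), and 6 were higher at an unadjusted p under 0.05, beside 5.30% of all IDs, with 0 lower, beside 3.04%. The log2 differences ran from -0.29 in ENSG00000177954, the single member below 0, to 1.44, with a median of 0.66 beside 0.24 over all IDs. Of all IDs, 56.2% were above 0. The members' median log2 CPM relative to all IDs had a pooled SD of 0.688 between replicate libraries of a group. With library size as the only scaling the medians were 0.08 and -0.28, and 20 members were above 0, beside 42.1% of all IDs. With that scaling, 0 members reached an unadjusted p of 0.05 (1.96% of all IDs were higher and 4.12% lower at it).

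The 6 genes were ENSG00000168028 (1.44 ± 0.48, edgeR adjusted p 0.477), ENSG00000118181 (1.08 ± 0.50, adjusted p 0.581), ENSG00000213741 (1.01 ± 0.40, adjusted p 0.527), ENSG00000142937 (0.92 ± 0.42, adjusted p 0.572), ENSG00000134419 (0.68 ± 0.28, adjusted p 0.536) and ENSG00000008988 (0.53 ± 0.24, adjusted p 0.565). ENSG00000142937 stood at 913, 966 and 843 against 1022, 804 and 1219 CPM in AlkAniline-Seq and at 699, 1011 and 850 against 692, 572 and 408 in the input. Its groups overlapped in AlkAniline-Seq and not in the input. Without replicate 2 of shscramble, 2 members were higher at an unadjusted p under 0.05, beside 3.87% of all IDs, and with library size alone the value of ENSG00000008988 was -0.04. The input comparison, the interaction and the comparisons with the input below share libraries, so their values are not independent of each other.

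AlkAniline-Seq reads of a few members were lower than input reads within each group. With shscramble, 4 members passed an adjusted p of 0.05 as lower (background 0.544%) and 0 as higher (background 0.0932%). These were ENSG00000008988 (log2 difference -2.21 ± 0.18, edgeR adjusted p 1.95e-07), ENSG00000134419 (-1.94 ± 0.21, adjusted p 1.69e-05), ENSG00000145425 (-1.38 ± 0.28, adjusted p 0.0207) and ENSG00000105372 (-1.15 ± 0.25, adjusted p 0.0315). With shMETTL1, 2 passed as lower (background 0.124%) and 0 as higher (background 0.0854%), namely ENSG00000008988 (-1.67 ± 0.17, adjusted p 2.62e-05) and ENSG00000134419 (-1.26 ± 0.20, adjusted p 0.00786). At an unadjusted p under 0.05, 8 members were lower (background 8.86%) and 0 higher (background 4.32%) with shscramble, and 3 were lower (background 4.74%) and 5 higher (background 3.53%) with shMETTL1. The difference between the groups for these genes is the interaction above, which none passed.

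No call held without each gene's most-read position, when 0 members passed in either group, beside 1 ID in all with shscramble and 0 with shMETTL1. With shscramble the 4 genes then stood at -0.80, -1.16, -1.06 and -0.91 in the order above. The members' median was -0.50 with all 30 below 0 (background 50.6%), 4 of them at an unadjusted p under 0.05 (background 7.40%). With shMETTL1, ENSG00000008988 turned to 0.43 and ENSG00000134419 stood at -0.35. The calls of ENSG00000105372 and ENSG00000145425 with shscramble were lost with library size alone and also without replicate 1 or 2 of shscramble, and that of ENSG00000145425 also without replicate 3. The call of ENSG00000134419 with shMETTL1 was lost without any 1 of the shMETTL1 replicates. The members' median was -0.51 beside -0.08 over all IDs with shscramble, and 0.13 beside 0.17 with shMETTL1. The SD of 0.688 between replicate libraries, given above for the interaction, was a single value for both groups. It is not the spread of either group alone. Taken by kind of library, that SD was 0.137 in AlkAniline-Seq and 0.875 in the input.

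Read pile-up was also measured as the share of the reads covering a gene's positions that were counted at them. No member passed the test for a difference of this share between the groups (limma on log2 percent). Of 7296 IDs, 0% were called in either direction, and 0 members reached an unadjusted p under 0.05 (background 2.47% higher, 3.34% lower). The members' standard errors ran from 0.33 to 0.46 in log2, so differences of that size could be missed. Log2 differences of the members ran from -0.31 to 0.25 with a median of -0.14, beside -0.13 over all IDs.

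At single positions the same share gave no member position that was higher in AlkAniline-Seq than in the input throughout. Among positions covered by at least 50 reads in all 12 libraries, 0 of 1554 member positions had all 6 AlkAniline-Seq libraries above all 6 inputs (background 0.117%), and 23, or 1.48%, had all 6 below (background 1.02%). Between the groups, over positions covered by at least 50 reads in the 6 AlkAniline-Seq libraries, 113 of 1900 member positions (5.95%, background 4.87%) were lower in every shMETTL1 library and 33 (1.74%, background 1.38%) were higher. Position 76 of ENSG00000008988 held on average 89.1% of its coverage with shscramble, 86.8% with shMETTL1, 93.9% in the shscramble input and 94.9% in the shMETTL1 input.

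Single positions were then compared between the groups by reads. Of 13973 positions tested, 695 were in members, and 0 passed an adjusted p of 0.05 in edgeR (background 0% in either direction). At an unadjusted p under 0.05, 8 were higher (1.15%, background 1.88%) and 18 were lower (2.59%, background 6.32%). DESeq2 called 15 member positions (2.16%, beside 5.10% of all positions tested), and edgeR without replicate 3 of shscramble called 40 (4.12%, beside 19.02% of all positions tested).

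The 5 member positions with the smallest p had separate groups, which choosing them by that p favours. Positions with separate read counts were not counted over all positions tested. Position 105 of ENSG00000138326 had 7, 2 and 2 reads with shscramble and 113, 220 and 235 with shMETTL1, at a coverage of 137 to 221 and 279 to 863. Position 67 of the same gene went the other way, with 82, 154 and 76 reads against 0, 3 and 1. One gene thus held a position of each kind. Position 6 of ENSG00000231500 had 13, 13 and 52 reads against 0, 0 and 0, at a coverage as low as 9. Position 19 of ENSG00000112306 had 1, 1 and 0 reads against 55, 63 and 118, and position 73 of ENSG00000137154 had 114, 96 and 40 against 2, 2 and 0. The edgeR adjusted p was 0.315, 0.315, 0.315, 0.316 and 0.346 in this order. The counts are too low in 1 group for a fold change to be given.

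In the input, the groups overlapped at all 5 positions. Position 105 of ENSG00000138326 had 37, 2 and 50 input reads with shscramble and 15, 66 and 58 with shMETTL1, and position 67 had 9, 1 and 32 against 47, 6 and 107. Position 6 of ENSG00000231500 had 0, 126 and 10 input reads against 6, 1 and 0. Position 73 of ENSG00000137154 had 18, 2 and 31 against 60, 11 and 19. At position 19 of ENSG00000112306, with 0, 0 and 0 against 41, 0 and 79, input reads came from shMETTL1 libraries alone, as nearly all AlkAniline-Seq reads did.

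**Figure D4:**
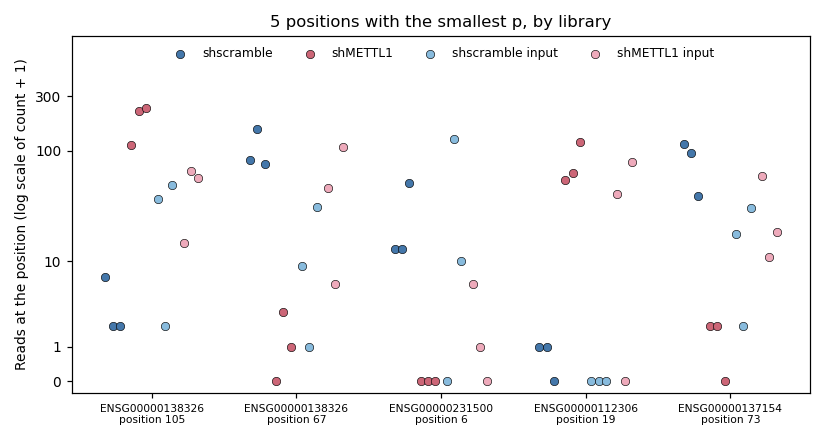
Reads at the 5 member positions with the smallest p in AlkAniline-Seq, by library, on a log scale of the count plus 1. Choosing by p favours separate AlkAniline-Seq groups. The shscramble and shMETTL1 AlkAniline-Seq points do not overlap at any of the 5, for example 7, 2 and 2 against 113, 220 and 235 reads at position 105 of ENSG00000138326, whereas input points overlap at all 5.

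Part of the reads of 2 members may belong to other IDs. ENSG00000124614 had 39 positions with at least 50 reads over all libraries, and all 39 had the same counts and coverage in all 12 libraries as a position of another ID, ENSG00000270800; they held 92.1% of its reads. In ENSG00000134419, 25 of 43 such positions, with 12.3% of its reads, matched ENSG00000260342, and the most-read position was not among them. The values of both are therefore uncertain as values of 1 gene. Genomic coordinates and exon annotation of these positions were not used here.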

How the data were processed

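LNCaP-AI cells with shscramble or shMETTL1 (3 replicates each, AlkAniline-Seq and input) were analysed as 12 libraries. Per the submitters' processing notes, cutadapt 1.9.1, Bowtie2 2.2.4, bedtools 2.24 and hg19 were used; the sources used here give neither their roles nor read filters, the gene annotation or the read end that defines a position. For every position, the deposited values are a read count, a count of covering reads (coverage), the fraction of the first over the second, and a ratio (fold) to the input's fraction, which entered no test. Positions were matched between libraries by row order. The gene ID column had the same order in every table. It cannot show that a row within a gene is the same site throughout, so results at single positions rest on that assumption.

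Counts were summed per gene ID. edgeR 4.0.16 (R 4.3.3; TMM; filterByExpr with a minimum count of 10 and a total of 15; glmQLFit) was the main test, with Benjamini-Hochberg adjustment over all IDs or positions. limma 3.58.1 tested log2(percent of coverage + 0.01) for IDs covered by at least 50 reads in each library. DESeq2 1.42.0, library size alone, no filter, the replicate number as a block, each replicate left out, the most-read position left out and the methods' t-test on log2(CPM + 1) were alternatives; scripts were tested on simulated data. In the fits without the most-read position, that position was found from the libraries of the fit and dropped in every ID. The members, the lists and the tests were chosen with earlier results of these data known. Values are given per library for members with an unadjusted p under 0.05, the 3 highest and 3 lowest fold changes, the 3 most and 3 fewest reads, and the positions with the 5 smallest p and 5 highest counts. A part of this rule that names genes by symbol, and lists of large subunit, assembly, mitochondrial and prostate marker genes, could not be matched to IDs and were not run. Totals per library set the precision, and reads without molecular identifiers are not independent molecules. The start windows are RefSeq's for GRCh38.p14, a build other than that of the files.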

Additional observations from a re-analysis of the deposited data

How the results depend on the processing

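No member passed the adjusted threshold in AlkAniline-Seq reads, in the interaction with the input or in the share of coverage under any alternative run. In the input, 3 members passed without the filter on low counts (95 of 17939 IDs in all), and 1 with the replicate number as a block (2 of 11740). The calls against the input numbered 4 with shscramble, 2 with library size alone, 0 without each gene's most-read position (chosen after seeing the data) and 2 to 4 with 1 replicate left out. With shMETTL1 they numbered 2, 0 without the most-read position (also chosen after seeing the data) and 1 to 3 with 1 replicate left out. Member positions called numbered 15 with DESeq2 (713 of all 13973) and 0 to 40 with 1 replicate left out, the 40 without replicate 3 of shscramble (5644 of all 29677). The members' median log2 difference in AlkAniline-Seq relative to all IDs, -0.09, moved to 0.063 with the replicate block, 0.14 without each gene's most-read position and 0.066 in the methods' t-test, and ranged from -0.17 to 0.01 with 1 replicate left out. The corresponding ranges were -0.65 to -0.35 in the input (-0.45 as reported), 0.24 to 0.55 over the input, -0.54 to -0.20 against the input with shscramble, -0.03 to 0.11 with shMETTL1 and -0.07 to 0.04 for the share of coverage. With the replicate block and without each gene's most-read position, respectively, the value in the input was -0.67 and -1.12, over the input 0.86 and 0.89 (0.42 as reported), against the input with shscramble -0.51 and -0.48 (-0.44 as reported) and with shMETTL1 0.298 and 0.39 (-0.035 as reported). Without that position the TMM factor of shscramble input 2 was 0.454. The cause of these moves was not tested.

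Signs turned in 8 single values. Without each gene's most-read position, ENSG00000008988 turned to 0.15 in AlkAniline-Seq and to 0.43 against the input with shMETTL1. The same gene turned to -0.043 over the input with library size alone. In the input, library size alone gave 0.13 in ENSG00000105193, 0.13 in ENSG00000115268 and 0.23 in ENSG00000177954, and ENSG00000177954 was 0.065 without replicate 3 of shscramble and 0.031 without replicate 1 of shMETTL1 (range -0.16 to 0.065 with 1 replicate left out). Same-numbered replicates did not deviate together (correlations of their deviations from -0.03 to 0.05 between groups, and from 0.00 to 0.03 between a library and its own input), so the replicate block is only an alternative fit; it changed no other count of calls by over 1.5 times.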

Other observations

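In ENSG00000197728, the member with the fewest AlkAniline-Seq reads, 46.5% of the reads of shMETTL1 replicate 2 lay at position 76, where the input libraries had at most 0.24% of the gene's reads. Position 76 had 1, 1 and 0 AlkAniline-Seq reads with shscramble and 0, 256 and 0 with shMETTL1. In each library with a read there, the count was 100% of the coverage. This position was chosen after its values were seen, and its share in 1 library had no test.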
